A study of Mus musculus with 8 samples.

Results

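Glutamate receptor subunits and the scaffold, kinase, adhesion and auxiliary proteins of the postsynaptic density were followed as 44 genes, out of 54446 genes in the counts table and 17636 with enough reads to be tested. The 44 were taken by name, matched to the GENCODE M21 symbols of the table's Ensembl identifiers, and all 44 were tested. RNA came from the medial prefrontal cortex of mice. Of the 8 libraries, 4 carry the label Ino80e overexpression and 4 the label wild type, spelled wile-type in the titles. In the study's design, adeno-associated virus was injected into this region to alter expression of a risk gene from the schizophrenia locus on human 16p11.2. The Ino80e protein belongs to INO80, a complex that remodels chromatin. The sources used here do not give the promoter of the virus, the cells it reached, whether wild-type mice received a control virus, or the age, sex and strain of the mice. Nothing in them ties a library to its own mouse, so every p-value measures the spread among the 8 libraries, and part of that spread may be technical.

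At excitatory synapses, glutamate opens AMPA receptors for fast current, NMDA receptors for calcium entry when the membrane is depolarised, and kainate receptors, which modulate both sides of the synapse. Metabotropic receptors signal through G proteins. Below the membrane, PSD-95 and related MAGUK proteins hold receptors in place, SAPAP, Shank and Homer proteins link them to the actin skeleton, and CaMKII converts calcium signals into lasting changes of synaptic strength. Neuroligins and LRRTM proteins bind presynaptic neurexins across the cleft. In the prefrontal cortex much of this machinery sits in the dendritic spines of pyramidal neurons.

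The 16 ionotropic receptor subunits of the set share a coding stretch for 7 residues, found by comparing the translations of 1 representative GENCODE transcript per gene. It lies in the pore-forming part of the receptor. Shown here are the 4 ionotropic members with an unadjusted p under 0.05, because the differences between groups ran with the base composition of the transcripts. Each sequence spans those 7 codons with 5 codons on either side (51 bases, 17 codons, GRCm38 coordinates, within 1 coding exon), and capitals mark a G or C at the third position of a codon.
Gria2: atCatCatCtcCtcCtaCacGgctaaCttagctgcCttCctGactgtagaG
Gria3: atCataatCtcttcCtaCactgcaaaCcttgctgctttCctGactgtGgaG
Grik3: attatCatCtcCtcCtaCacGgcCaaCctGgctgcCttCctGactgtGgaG
Grik5: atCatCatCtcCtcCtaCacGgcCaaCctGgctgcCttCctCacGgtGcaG
The Gria2 stretch lies at chr3:80702557-80702607 on the minus strand and the Gria3 stretch at chrX:41620846-41620896 on the plus strand. The Grik3 stretch lies at chr4:125694030-125694080 on the plus strand and the Grik5 stretch at chr7:25015907-25015957 on the minus strand. G or C filled that position in 9 of the 17 codons in Gria3, 12 in Gria2, 14 in Grik3 and 16 in Grik5. Over the whole transcript, UTRs included, GC content was 36.8% for Gria2, 42.99% for Gria3, 54.2% for Grik3 and 62.3% for Grik5. These 4 were chosen by p from fold changes that ran with GC, so their order in GC is no finding about kainate against AMPA genes.

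Library totals ran from 44762378 to 60490153 counts, and the 44 genes took 1.47% to 1.62% of them. Levels below are in CPM, each count being divided by its library's TMM-scaled size. Ino80e stood at 74.1, 23.4, 23.3 and 45.04 CPM in replicates 1 to 4 of the group labelled overexpression and at 22.3, 19.5, 25.5 and 20.7 CPM in wild type. Replicates 2 and 3 of the first group thus lay inside the wild-type range, and every direction below is that of the labels, not of a measured rise of Ino80e. Exons of Ino80e overlap those of Doc2a and Hirip3 on the opposite strand, which leaves its counts uncertain if strand was ignored. Its log2 fold change was 0.91 (SE 0.42, edgeR adjusted p = 0.51). Of 10 marker lists of cell types, none had a gene that passed the test. All 7 excitatory neuron markers were detected, and their summed level was 2539 to 2825 CPM in the group labelled overexpression and 2364 to 2682 CPM in wild type. Most of that sum was Slc17a7, with means of 2067 and 1961 CPM in the same order. Of the 7, 3 were above 0 in log2 fold change and 4 below. Only Neurod6 had an unadjusted p under 0.05, on the lower side (log2 -0.21, edgeR adjusted p = 0.32). The 8 microglial markers summed to 425 to 540.4 against 406 to 465 CPM, with 6 above 0 in log2 fold change and 4 of them at an unadjusted p under 0.05, and the 7 striatal neuron markers to 238 to 463 against 251 to 411 CPM, with all 7 above 0. The 5 meningeal fibroblast markers summed to 71.4 to 86.6 against 55.5 to 80.8 CPM, with 4 above 0 and 2 at an unadjusted p under 0.05. Of the 7 astrocyte markers, which summed to 1968 to 2274 against 1948 to 2195 CPM, 3 were above 0 and Gfap alone had an unadjusted p under 0.05 (log2 0.48). The 6 oligodendrocyte markers were lowest in overexpression replicate 1 (4202 CPM against 5049 to 6100 elsewhere). The 5 choroid plexus markers reached 1068 CPM in wild-type replicate 4, against 6.45 to 101.8 CPM in the others. All 5 were below 0 in log2 fold change (median -1.91), with 1 at an unadjusted p under 0.05. Over all genes tested, 50.5% were above 0 and 10.7% had an unadjusted p under 0.05. With the GC correction described further on, Csf1r, C1qc and Tmem119 of the microglial list went from log2 0.18, 0.34 and 0.23 to 0.11, 0.24 and 0.13. In the same fit Gfap went from 0.48 to 0.40 and Neurod6 from -0.21 to -0.13. The part of these markers in the differences below was not tested. In bulk tissue, fewer cells of a type and less RNA per cell cannot be told apart.

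None of the 44 genes passed the test between the groups (edgeR quasi-likelihood, Benjamini-Hochberg adjusted p under 0.05 over all genes), where 0.034% of all genes did, 6 in number (0.0113% higher and 0.0227% lower). DESeq2 and limma-voom also called none, though DESeq2 gave no adjusted p for Grin2d, Grik1 and Homer3 and so could not call them. At an unadjusted p under 0.05 edgeR gave 5 of the 44, namely Grik5 and Grik3 on the higher side and Gria2, Gria3 and Homer2 on the lower side. Over all genes 10.7% were that low in p, 5.24% higher and 5.43% lower, so the count of 5 in 44 is near the background. The lowest adjusted p of any member was 0.31, for Grik5. The median log2 fold change of the 44 was -0.0011, with 22 above 0 and 22 below, and that of all genes tested was 0.0016.

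For 43 of the 44 genes the 95% interval of the fold change lay inside 1.5-fold in either direction, and Homer3 was the exception. Leaving out overexpression replicates 2 and 3, whose Ino80e lay inside the wild-type range, again gave no called member. Grik5 (log2 0.18), Grin1 (0.15), Grm3 (-0.18) and Homer2 (-0.18) then had an unadjusted p under 0.05, 4 of 44 where 7.08% of all genes did in that fit. Gria3 (-0.15), Gria2 (-0.093) and Grik3 (0.10) did not. Absolute log2 fold changes had a median of 0.082, against 0.078 for the 11355 tested genes at or above the mean level of the lowest member. Between wild-type libraries the members varied by a median coefficient of variation of 7.57%, from 2.16% for Camk2b to 29.1% for Homer3, against 6.99% for those 11355 genes. CPM ranges of the groups did not overlap for Gria3, which was lower, and for Grik5, which was higher, while 5.84% of all genes tested had no overlap (2.82% higher and 3.02% lower).

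**Figure D1:**
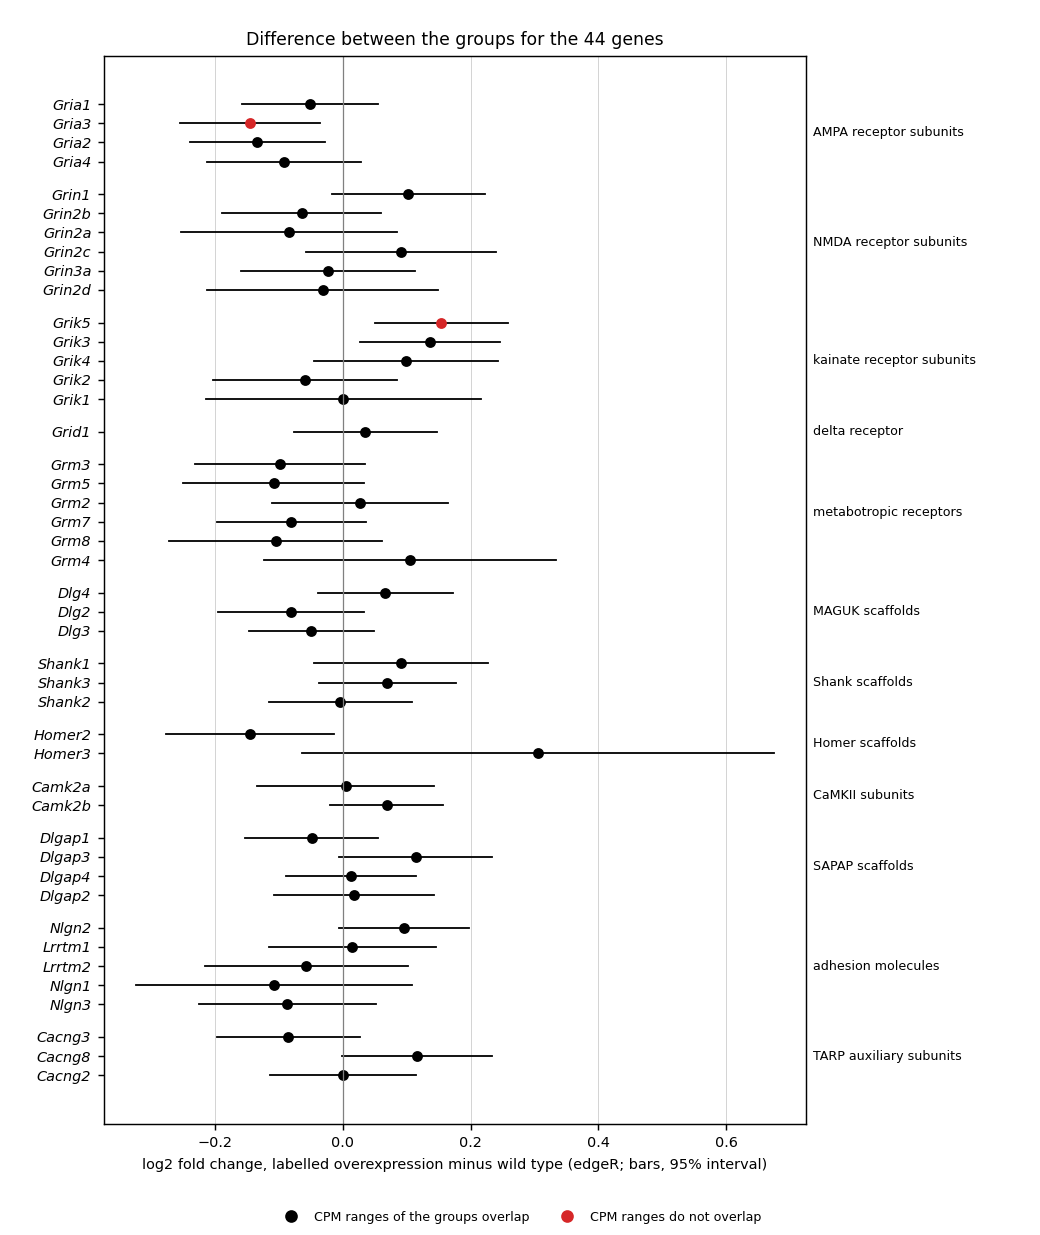
Log2 fold change (x axis, libraries labelled overexpression minus wild type) of each of the 44 genes, grouped by role, with 95% intervals from edgeR on 4 against 4 libraries. Red points mark Gria3 and Grik5, whose CPM ranges did not overlap between groups, and the interval of Homer3, -0.064 to 0.67, is the widest.

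Between genes, levels were compared as CPM per kilobase of the representative transcript. In wild type they spanned 586-fold, from 1.70 ± 0.494 for Homer3 to 995 ± 103 for Camk2a (SD, n = 4). A different length changes them: per kilobase of all annotated exons together, the level of Homer2 was 7.07 in place of 54.6 and that of Dlg4 77.4 in place of 294. The order within AMPA, metabotropic, MAGUK and SAPAP genes changed with this choice of length, and that within the other groups did not.

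**Figure D2:**
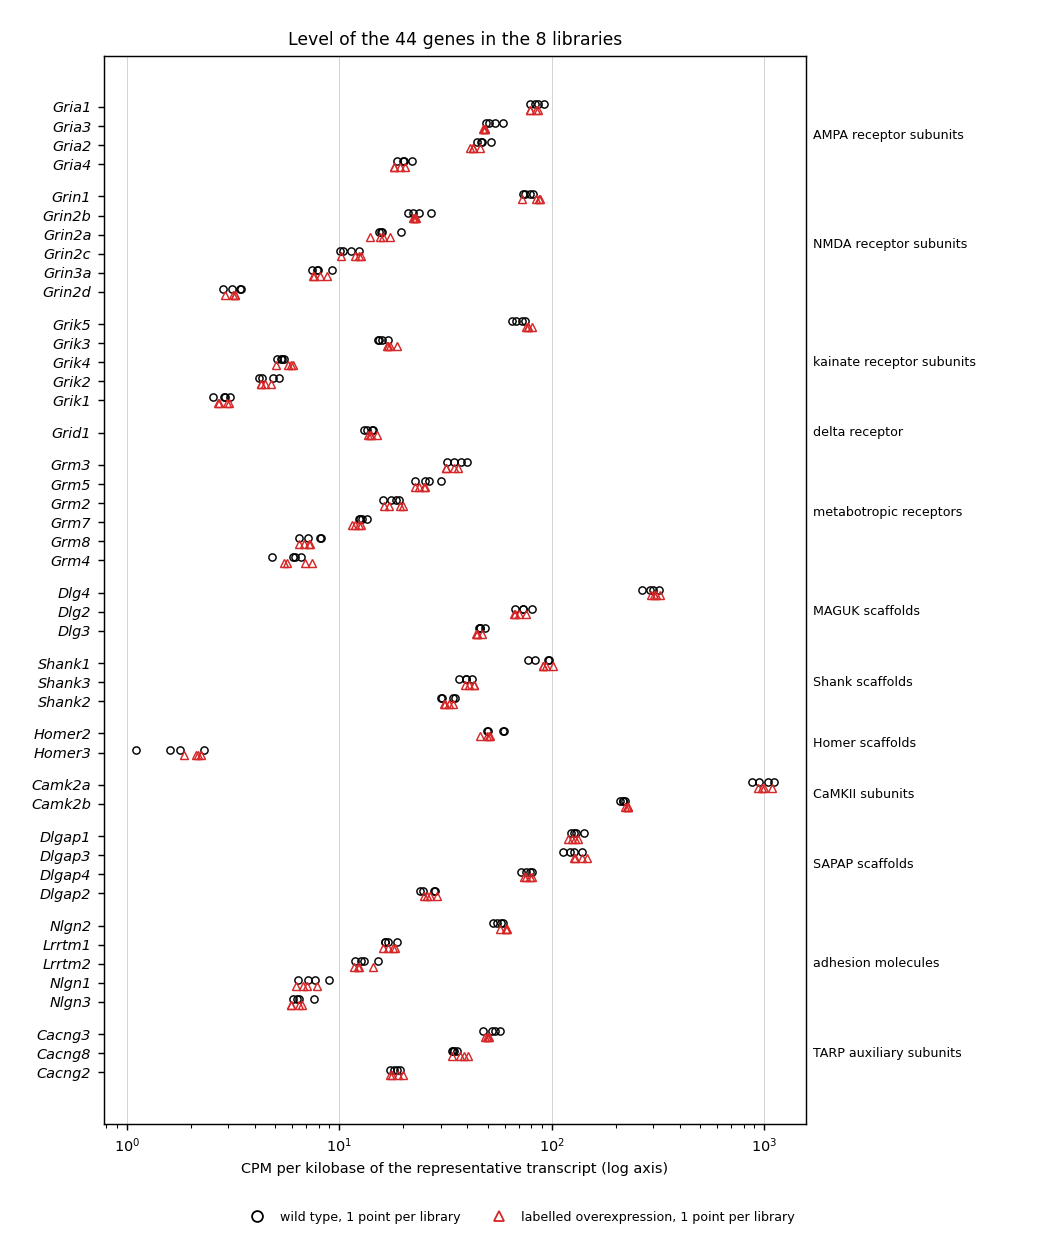
Level of the 44 genes in CPM per kilobase of the representative transcript (log x axis), grouped by role and ordered by the wild-type mean, with 1 point per library (circles, wild type; triangles, labelled overexpression). Camk2a and Dlg4 are highest, Homer3, Grik1 and Grin2d lowest, and the groups lie within each other's range or close to it for every gene.

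AMPA receptors carry most of the fast excitatory current, and their 4 subunits all had log2 fold changes below 0, from -0.15 to -0.050, none past the test. All 4 were among the 22 members of lower GC content, of which 4 were above 0. With the GC correction described further on 3 of the 4 were below 0. In that fit 10 of the 44 members and 7912 of the 17636 genes tested were above 0. Gria3, which encodes GluA3, stood at 251, 251, 249 and 247 CPM in the group labelled overexpression, against 280.2, 306, 263 and 255 CPM in wild type, in the order of replicates 1 to 4. Every overexpression library was below every wild-type library, with 251 against 255 CPM at the closest (log2 fold change -0.15, SE 0.053, edgeR adjusted p = 0.35). Gria2, which encodes GluA2, the subunit that keeps edited AMPA receptors impermeable to calcium, stood at 444, 428, 443 and 478 CPM and 481, 536, 463 and 487 CPM in the same order. Overexpression replicate 4 lay inside the wild-type range and the other 3 below it (log2 fold change -0.13, SE 0.051, edgeR adjusted p = 0.38). Gria1, encoding GluA1, which is added to synapses during potentiation, stood at 426, 467, 427 and 457 CPM against 452, 468, 426 and 495 CPM, with full overlap (log2 -0.050). Gria4, the GluA4 gene, which in cortex is best known from interneurons, stood at 109.6, 96.6, 96.7 and 104 CPM against 107, 118, 108 and 100.1 CPM, also overlapping (log2 -0.091). Per kilobase the wild-type order was Gria1 (85.2 ± 5.42), Gria3 (53.2 ± 4.29), Gria2 (47.4 ± 3.02) and Gria4 (20.2 ± 1.41). The ranges of Gria3 and Gria2 overlapped, and with all exons as the length Gria2 came before Gria3.

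Gria2 (ENSMUSG00000033981) lies at chr3:80681450-80802835 on the minus strand and Gria3 (ENSMUSG00000001986) at chrX:41400854-41678601 on the plus strand of GRCm38. Gria2 has the lowest GC content of the 44 and Gria3 a low one, and with a GC correction their log2 fold changes were 0.0015 and -0.076.

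TARPs are auxiliary subunits that bring AMPA receptors to the surface and slow their closing. Cacng8, encoding TARP gamma-8, stood at 73.1, 64.5, 76.7 and 70.2 CPM against 64.2, 64.9, 67.99 and 65.5 CPM. Overexpression replicates 1, 3 and 4 were above the wild-type range and replicate 2 was inside it (log2 fold change 0.12, SE 0.057, edgeR adjusted p = 0.47, log2 -0.012 with the GC correction). Cacng3, the gamma-3 gene and the highest TARP per kilobase (52.8 ± 3.87 in wild type), stood at 141, 139.9, 138 and 135 CPM against 145, 151, 158 and 133 CPM (log2 -0.085). With the GC correction it was 1 of 2 members of 44 with an unadjusted p under 0.05, where 4.92% of all genes had one (log2 -0.16, edgeR adjusted p = 0.97). Cacng2, which encodes stargazin and was the lowest TARP per kilobase (18.5 ± 0.854), stood at 104, 95.96, 109 and 97.4 CPM against 100.3, 107, 104 and 96.04 CPM, with a log2 fold change of 0.0011 and a 95% interval of -0.11 to 0.12.

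NMDA receptors need the GluN1 subunit, encoded by Grin1, joined by GluN2 or GluN3 subunits that set their kinetics. No gene of the 6 had an unadjusted p under 0.05, with 2 above 0 and 4 below. Grin1 stood at 368, 306, 372 and 358 CPM against 317, 346, 334 and 310.1 CPM. Replicates 1, 3 and 4 of the group labelled overexpression were above the wild-type range, and replicate 2 was the lowest of all 8 (log2 fold change 0.10, SE 0.057, edgeR adjusted p = 0.53, log2 -0.016 with the GC correction). Its exons share 13.5% of their bases with the antisense gene Grin1os, so its counts are uncertain if the counting did not use strand. Grin2b, encoding GluN2B, the subunit of slow receptors that dominates early development, stood at 554, 545, 539 and 533 CPM against 507, 652, 535 and 573 CPM (log2 -0.064). Grin2a, encoding GluN2A, which joins receptors as circuits mature, stood at 253, 204, 228 and 235 CPM against 233, 287, 226 and 229.9 CPM (log2 -0.084). Both were highest in wild-type replicate 2, and the groups overlapped. Grin2d, for the GluN2D subunit of interneurons, was the lowest of the family at 17.6, 15.8, 17.6 and 17.1 CPM against 18.8, 16.96, 18.5 and 15.5 CPM (log2 -0.031). Grin2c (GluN2C) had a log2 fold change of 0.092 and Grin3a (GluN3A) of -0.023. In wild type the levels per kilobase ran from Grin1 (77.1 ± 3.88) through Grin2b (23.6 ± 2.61), Grin2a (16.7 ± 1.96), Grin2c (11.1 ± 1.03) and Grin3a (8.13 ± 0.772) to Grin2d (3.21 ± 0.276). Ranges of neighbours in that order did not overlap.

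Kainate receptor genes had 4 of 5 log2 fold changes above 0 and 2 of the 5 unadjusted p-values under 0.05, beside 50.5% above 0 and 10.7% under that p over all genes. Grik5 encodes GluK5, a high-affinity subunit that works only together with GluK1, GluK2 or GluK3. It stood at 304, 286, 290.1 and 291 CPM in the group labelled overexpression, against 280.5, 255, 273 and 244 CPM in wild type. All 4 of the first group were above all wild-type libraries, with 286 against 280.5 CPM at the closest (log2 fold change 0.15, SE 0.050, edgeR adjusted p = 0.31). Grik3, the GluK3 gene, stood at 151, 168, 152 and 155 CPM against 136, 143, 138 and 153 CPM. Wild-type replicate 4 reached above 2 of the libraries labelled overexpression and the other wild-type libraries were below all 4 (log2 fold change 0.14, SE 0.053, edgeR adjusted p = 0.38). Grik1, the GluK1 gene, was the lowest kainate gene at 10.9, 11.1, 9.92 and 9.79 CPM against 10.6, 10.4, 11.2 and 9.33 CPM (log2 0.0011, 95% interval -0.21 to 0.22). Grik4 (GluK4) had a log2 fold change of 0.10 and Grik2 (GluK2) of -0.059. Per kilobase in wild type Grik5 (69.9 ± 4.38) was well above Grik3 (15.9 ± 0.813), Grik4 (5.31 ± 0.165), Grik2 (4.65 ± 0.477) and Grik1 (2.85 ± 0.214), and only the ranges of Grik4 and Grik2 overlapped. Grik5 (ENSMUSG00000003378, chr7:25009849-25072346, minus strand) is among the GC-rich members, and with the GC correction its log2 fold change was 0.031 and that of Grik3 0.071. All 5 kainate genes were above 0 in that fit, from 0.026 to 0.071, where 7912 of the 17636 genes tested were. None of the 5 had an unadjusted p under 0.05. Grik5 and Gria3 stayed under an unadjusted p of 0.05 in each fit that left out 1 library. The p of Grik3 was above 0.05 without overexpression replicate 2 or wild-type replicate 1, and that of Gria2 without overexpression replicate 2 or wild-type replicate 2.

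Grid1 encodes GluD1, a delta receptor that binds cerebellin proteins and acts as a synaptic organiser rather than a glutamate-gated channel. It stood at 79.9, 80.8, 86.4 and 78.03 CPM against 75.05, 81.9, 77.2 and 82.97 CPM, with overlapping groups (log2 0.036, 95% interval -0.075 to 0.15).

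Metabotropic receptor genes had 4 of 6 log2 fold changes below 0, and none had an unadjusted p under 0.05. Grm3, encoding mGlu3, a Gi-coupled receptor of astrocytes and neurons, was the highest per kilobase (36.05 ± 3.37 in wild type). It stood at 96.9, 111, 106 and 96.6 CPM against 106, 122, 114 and 97.8 CPM (log2 -0.10), with overlap. Grm4, the gene of the presynaptic receptor mGlu4, was the lowest (5.93 ± 0.771) and stood at 25.3, 26.1, 34.3 and 31.8 CPM against 22.2, 30.5, 27.96 and 28.6 CPM. Its libraries spread widely in both groups, and the 95% interval of its log2 fold change of 0.11 ran from -0.12 to 0.33, and with the GC correction the change was -0.022. Grm5, the Gq-coupled mGlu5 that Homer proteins tie to the scaffold, had a log2 fold change of -0.11, and the presynaptic receptor genes Grm7 and Grm8 of -0.080 and -0.10. Grm2, for the autoreceptor mGlu2, was at 0.027.

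MAGUK scaffolds hold receptors through their PDZ domains. Dlg4, which encodes PSD-95, stood at 1131, 1062, 1078 and 1026 CPM against 1014, 1047, 1110.2 and 932 CPM, overlapping between groups (log2 fold change 0.067, SE 0.051, edgeR adjusted p = 0.65, log2 -0.037 with the GC correction). Dlg3, which encodes SAP102, was the lowest MAGUK gene per kilobase (46.5 ± 1.46 in wild type, against 294 ± 21.3 for Dlg4 and 73.7 ± 5.64 for Dlg2). It stood at 218, 217, 229 and 215 CPM against 224, 238, 223 and 224 CPM, and only overexpression replicate 3 was inside the wild-type range (log2 -0.049). Dlg2, the PSD-93 gene, had a log2 fold change of -0.081. As a share of the 3 genes' summed level per kilobase, Dlg4 made up 72.9, 72.7, 73.1 and 72.7% in the group labelled overexpression, against 70.9, 69.8, 72.9 and 70.3% in wild type. Overexpression replicates differed by less than 1 point, and wild-type replicate 3 was inside their range while the other wild-type libraries were below it.

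SAPAP proteins bridge PSD-95 and Shank. Dlgap3, whose loss in mice causes compulsive grooming, stood at 616, 543, 584 and 538 CPM against 515, 535, 582 and 476 CPM (log2 fold change 0.11, SE 0.058, edgeR adjusted p = 0.48, log2 -0.012 with the GC correction). The groups overlapped through wild-type replicate 3. Dlgap1, the GKAP gene and the highest per kilobase (131 ± 7.97 in wild type, overlapping 125 ± 10.5 of Dlgap3), stood at 701, 627, 683 and 659 CPM against 685, 750.1, 672 and 653 CPM (log2 -0.048). Dlgap2, the lowest (26.2 ± 2.14), stood at 102, 95.8, 110.5 and 99.05 CPM against 95.4, 109, 107 and 92.04 CPM (log2 0.017), and Dlgap4 had a log2 fold change of 0.013.

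Shank proteins form the deep layer of the density. Shank1 stood at 998, 895, 924 and 898 CPM against 824, 944, 957 and 762 CPM, with wild-type replicates 2 and 3 among the overexpression libraries and replicates 1 and 4 below them (log2 0.091, and -0.033 with the GC correction). Shank2, the lowest of the 3 per kilobase (32.5 ± 2.48 in wild type, against 39.6 ± 2.23 for Shank3 and 88.7 ± 9.64 for Shank1), stood at 309.5, 283, 295 and 280.0 CPM against 272, 308, 315 and 275 CPM (log2 -0.0033, 95% interval -0.12 to 0.11). Shank3, whose human counterpart is lost in Phelan-McDermid syndrome, had a log2 fold change of 0.070, and of -0.054 with the GC correction.

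Homer proteins link Shank to mGlu5 and to calcium stores. As fitted, Homer3 had the highest log2 fold change of the 44, a place that Grm4 took without wild-type replicate 2. Homer2 shared the lowest with Gria3 to 2 decimals, and which gene was lowest changed between settings. Homer3 stood at 5.65, 5.87, 4.88 and 5.52 CPM against 4.17, 2.88, 4.65 and 6.001 CPM. Wild-type replicate 4 was above all libraries labelled overexpression and wild-type replicate 2 was far below them, so the groups overlapped (log2 fold change 0.31, SE 0.18, edgeR adjusted p = 0.55). Homer3 was the least abundant member, with 135 counts in its lowest library, and 25.4% of its exon bases are shared with Ddx49 on the opposite strand. Homer2 stood at 83.05, 83.5, 81.2 and 74.8 CPM against 82.2, 96.3, 97.5 and 80.7 CPM. Overexpression replicate 4 was the lowest of all, and the other 3 lay above wild-type replicate 4 and well below wild-type replicates 2 and 3 (log2 fold change -0.15, SE 0.063, edgeR adjusted p = 0.43). With the GC correction its log2 fold change was -0.20 (edgeR adjusted p = 0.95), and it was the other member with an unadjusted p under 0.05 in that fit, where 0.0284% of all genes were called and no member was. As fitted, its unadjusted p was above 0.05 without overexpression replicate 4, wild-type replicate 2 or wild-type replicate 3.

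CaMKII is the most abundant kinase of the density. Camk2a, its alpha subunit gene and the most abundant member, stood at 5405, 4844, 4938 and 4652 CPM against 4705, 5162, 5535 and 4373 CPM. Wild-type libraries held both the highest and the lowest value, and the log2 fold change was 0.0046 (95% interval -0.13 to 0.14). Camk2b, for the beta subunit, which also binds actin, stood at 921, 889, 925 and 915 CPM against 847, 892, 869 and 872 CPM. Overexpression replicates 1, 3 and 4 were above the wild-type range and replicate 2 was inside it (log2 fold change 0.069, SE 0.043, edgeR adjusted p = 0.56, log2 -0.021 with the GC correction).

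Among the postsynaptic adhesion genes, Nlgn2, whose neuroligin 2 sits mainly at inhibitory synapses, was highest per kilobase (56.3 ± 2.83 in wild type). It stood at 343, 317, 338 and 340.3 CPM against 308, 329, 323 and 294 CPM. Replicates 1, 3 and 4 of the group labelled overexpression were above the wild-type range and replicate 2 inside it (log2 fold change 0.10, SE 0.049, edgeR adjusted p = 0.49, log2 -0.026 with the GC correction). Nlgn3 was lowest (6.64 ± 0.694) at 56.4, 50.4, 54.7 and 50.1 CPM against 54.8, 64.7, 53.7 and 51.5 CPM (log2 -0.086), and 41.2% of its exon bases are shared with Gm21986 on the same strand, which makes its counts uncertain. Nlgn1, of excitatory synapses, had a log2 fold change of -0.11 (95% interval -0.32 to 0.11), Lrrtm1 of 0.015 and Lrrtm2 of -0.057. The last 2 encode neurexin ligands of excitatory synapses.

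Subunit ratios do not depend on library scaling, and 3 were tested by exact two-sided permutation over the 70 arrangements of the libraries, where 0.0286 is the smallest p possible. The Grin2a to Grin2b ratio, which rises as cortex matures, was 0.752, 0.617, 0.697 and 0.725 per kilobase in the group labelled overexpression, against 0.756, 0.723, 0.694 and 0.659 in wild type. Means were 0.698 ± 0.0583 and 0.708 ± 0.0412 (SD, n = 4 each, exact permutation p = 0.80, adjusted over the 3 ratios p = 0.80). Gria2 made up 22.4, 21.3, 22.8 and 23.3% of the summed AMPA subunit level against 22.7, 23.6, 22.96 and 22.7%. Its means were 22.4% ± 0.85 and 23.0% ± 0.39 (SD, n = 4 each, exact permutation p = 0.37, adjusted p = 0.77). With the GC correction this difference turned from -0.56 to 0.58 points. The Camk2a to Camk2b ratio was 4.75, 4.41, 4.32 and 4.12 against 4.50, 4.68, 5.16 and 4.06, with means of 4.40 ± 0.265 and 4.60 ± 0.455 (SD, n = 4 each, exact permutation p = 0.51, adjusted p = 0.77). The ranges of the groups overlapped for each of the 3, and none passed the test.

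**Figure D3:**
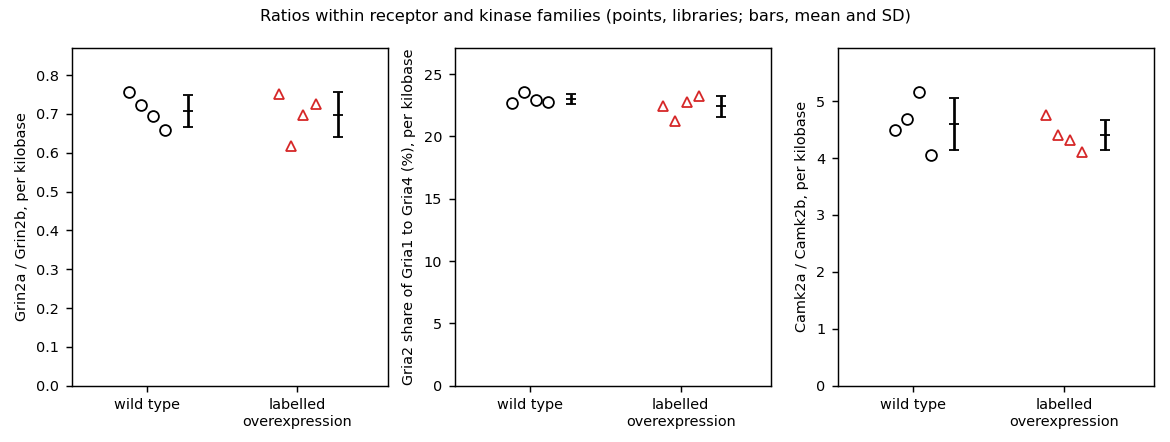
Grin2a to Grin2b ratio, Gria2 share of the 4 AMPA subunits in percent, and Camk2a to Camk2b ratio, each from levels per kilobase (y axes from 0), with 1 point per library and bars for the mean and SD of 4 libraries. The ranges of the groups overlap in each panel, as for the Gria2 share with 21.3% to 23.3% against 22.7% to 23.6%.

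Fold changes of the 44 genes ran with transcript GC content, which spanned 36.8% in Gria2 to 65.1% in Cacng8. Over the 44 genes the rank correlation of log2 fold change with GC was 0.80. Over the 11355 genes at or above the level of the lowest member it was 0.65. Both describe genes that share the same 8 libraries, not independent replicates. Of the 22 members of higher GC 18 were above 0 (median log2 0.069), and of the 22 of lower GC 4 were (median -0.072). The GC correction fitted a spline on GC in each library, to the log2 CPM of each gene less its mean over the 8 libraries. It takes out any group difference that runs with GC, whatever its source, so a weaker trend after it follows from the fit. With it, 3 and 7 were above 0 (medians -0.035 and -0.023), and the rank correlation was -0.16. The correction changed the sign of 20 members, 16 of them above 0 before, among them Grin1, Camk2b, Dlg4, Shank1, Shank3, Dlgap3, Nlgn2 and Cacng8. The other members kept their sign, with Grik1, Grik3, Grik4, Grik5, Grid1 and Homer3 above 0. Below 0 in both fits were the receptor genes Gria1, Gria3, Gria4, Grin2a, Grin2b, Grin2d, Grin3a, Grm3, Grm5, Grm7 and Grm8. So were Dlg2, Dlg3, Shank2, Homer2, Dlgap1, Nlgn3 and Cacng3. In the corrected fit all 5 kainate genes were above 0, beside 10 of the 44 members and 7912 of the 17636 genes tested. No NMDA, metabotropic, MAGUK, Shank, CaMKII, SAPAP or TARP gene was above 0. The median over all genes was -0.013, and each of 20 GC bins of those 11355 genes had a median below 0 (-0.029 to -0.0057). Differences between families were not tested. What the GC trend came from was not tested.

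**Figure D4:**
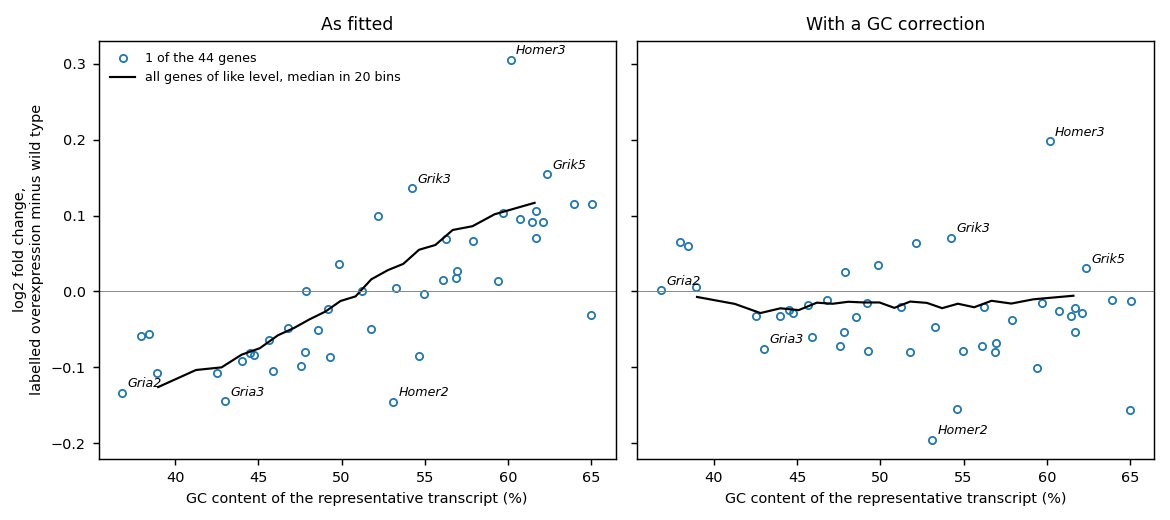
Log2 fold change (y axis, libraries labelled overexpression minus wild type) against GC content of the representative transcript in percent, as fitted (left) and with a GC correction (right). Circles are the 44 genes and the line is the median of 20 bins of about 568 genes. These are all tested genes at or above the mean level of the lowest member, called of like level in the legend. The line rises from -0.13 to 0.12 on the left and lies between -0.029 and -0.0057 on the right. Its flatness on the right follows from the correction, which takes out any group difference that runs with GC.

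The split by GC was not the same in every library. Relative to the wild-type mean in log2 CPM, the 22 members of higher GC shifted by a median of 0.12, -0.015, 0.10 and 0.019 in replicates 1 to 4 of the group labelled overexpression and -0.031, 0.035, 0.093 and -0.10 in wild type. The 22 members of lower GC shifted by 0.0050, -0.079, -0.089 and -0.083 and -0.018, 0.14, -0.063 and -0.068. The difference between the 2 sets was 0.12, 0.064, 0.19 and 0.10 in the group labelled overexpression and -0.013, -0.11, 0.16 and -0.036 in wild type. Wild-type replicate 3 was above overexpression replicates 1, 2 and 4. Shifts were taken from the wild-type mean, so wild-type libraries fall on both sides of 0 largely by construction. Wild-type replicate 2 held the highest value of 18 members, and wild-type replicate 4 the lowest of 14.

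**Figure D5:**
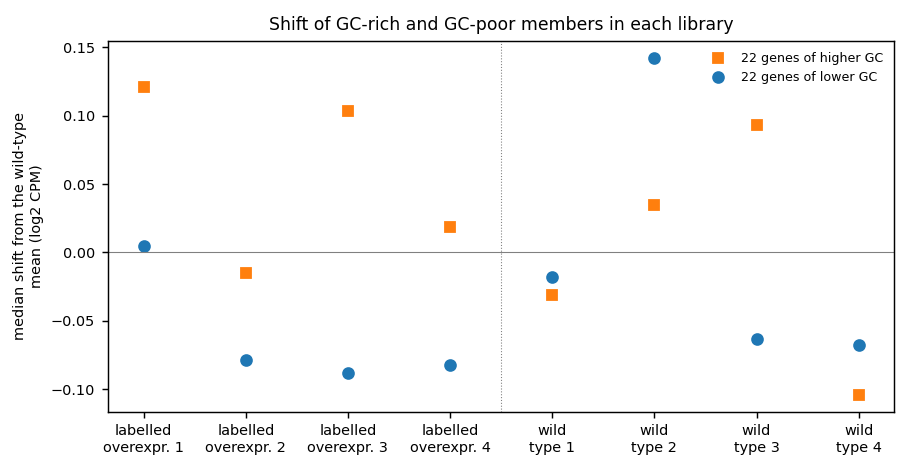
Median shift from the wild-type mean (y axis, log2 CPM) of the 22 members of higher GC (squares) and the 22 of lower GC (circles) in each of the 8 libraries. Squares lie above circles in the 4 libraries labelled overexpression and in wild-type replicate 3.

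Other genes of the glutamate synapse gave no calls either. None of 26 auxiliary and trafficking genes, 37 trans-synaptic adhesion genes and 30 postsynaptic signalling genes passed the test over all genes. At an unadjusted p under 0.05 there were 2 higher and 2 lower in the first list, 5 and 6 in the second, and 5 and 2 in the third, beside 5.24% higher and 5.43% lower over all genes. Medians of log2 fold change were 0.028, -0.042 and -0.015. Nptx1, a neuronal pentraxin that clusters AMPA receptors, was at 541 ± 8.91 CPM against 488 ± 4.17 CPM (SD, n = 4 each) with no overlap (log2 0.15, SE 0.043, edgeR adjusted p = 0.31). Nptx2, a related pentraxin induced by activity, was at 49.5 ± 3.64 against 55.7 ± 3.08 CPM (log2 -0.17, SE 0.062, edgeR adjusted p = 0.35). Frrs1l, which helps to assemble AMPA receptors, had a log2 fold change of -0.15. In the adhesion list Flrt3, a ligand of latrophilins, was at 25.1 ± 2.32 against 31.2 ± 2.64 CPM (log2 -0.31, SE 0.081, edgeR adjusted p = 0.26). Lrrtm3, a relative of Lrrtm1 and Lrrtm2, was lower without overlap (log2 -0.21, SE 0.060, edgeR adjusted p = 0.31), and Lrrc4b, encoding the netrin-G related adhesion protein NGL-3, was higher without overlap (log2 0.16, SE 0.049, edgeR adjusted p = 0.31). In the signalling list Homer1 (log2 -0.17), Ppp3r1 of calcineurin (log2 -0.14) and Begain, a PSD-95 binding protein (log2 0.15), had the lowest p-values. With the GC correction the log2 fold changes were 0.075 for Nptx1, -0.28 for Nptx2 and -0.081 for Frrs1l. They were -0.24 for Flrt3, -0.15 for Lrrtm3 and 0.033 for Lrrc4b. Homer1 was then at -0.066, Ppp3r1 at -0.057 and Begain at 0.023.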

How the data were processed

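Polyadenylated RNA of mouse medial prefrontal cortex was sequenced as strand-specific libraries, per the labels' protocols. The authors deposited raw read counts per Ensembl gene, 1 column per library. The submitters' processing notes name Trimmomatic 0.39, STAR 2.7.10 and featureCounts 2.0.3, with the builds mm10 and GRCm38. The sources used here do not give the strand setting, the annotation release or the handling of multi-mapped reads. Groups came from sample titles. A symbol was found for 54409 of 54446 identifiers in GENCODE M21 (GRCm38). Every pair of libraries differed beyond sampling noise (chi-square per degree of freedom at least 9.53).

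Counts were filtered with filterByExpr, scaled by TMM and tested over all genes with edgeR 4.0.16 (robust quasi-likelihood, R 4.3.3). The common biological coefficient of variation was 12.9%. The representative transcript was the best APPRIS principal one, and the longest among equals. Alternatives were RLE and upper-quartile scaling, 2 other low-count filters, DESeq2 1.42.0, limma-voom (limma 3.58.1), no robust estimation, a replicate block, a GC offset (spline, 5 degrees of freedom, prior count 2), and libraries left out. Values in every library are given for genes that did not overlap, had the extreme fold changes, were the highest or lowest per kilobase of their role group, or entered a ratio, and, chosen after their values were seen, for Cacng8, Dlgap3, Grik3 and the share of Dlg4. From each other list up to 3 genes of lowest p are named. A gene that this rule names is not reported here. Members and lists were chosen with earlier results of these data known.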

Additional observations from a re-analysis of the deposited data

Results flagged for a closer look

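Grin2a stood apart in 1 wild-type library, at 287 CPM in replicate 2 against 226 to 233 CPM in the other 3. Dlg3 did so in the same library, at 238 CPM against 223 to 224 CPM. The gap to the nearest library made up 0.880 of the range of the 4 for Grin2a and 0.949 for Dlg3, above Dixon's 95% critical value for 4 values. Of 94 groups of 4 values examined, 2 were flagged, and chance flags about 1 in 20.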

How the results depend on the processing

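No member was called in any of the 19 alternatives, and the lowest adjusted p over them was 0.097 (Grik5, DESeq2). In DESeq2 the genes Grin2d, Grik1 and Homer3 had no adjusted p. Of the 44 genes, 17 kept the sign of their fold change in all 19, 4 above 0 and 13 below. The count of members at an unadjusted p under 0.05, which was 5, was 8 with upper-quartile scaling (10.8% of all genes), 9 with no low-count filter (9.74%), and 2 with the GC correction, without (4.92%) or with the replicate block (4.59%). It ran from 4 to 13 when 1 library was left out, with 13 without wild-type replicate 3 (13.8% of all genes) and 10 without wild-type replicate 4 (9.77%). Over all genes the calls, 6 as reported, numbered 83 with no low-count filter, 28 with DESeq2, 2 with limma-voom, 2 without robust estimation, 1 with the replicate block, 2 with the GC correction and replicate block together, and 1 without overexpression libraries 2 and 3, where the members at an unadjusted p under 0.05 numbered 4. With 1 library left out they ran from 1 to 8: 2 without overexpression replicate 1 or 3, 1 without overexpression replicate 2 or any 1 wild-type replicate, and 8 without overexpression replicate 4. The cause of these shifts was not tested. The GC correction turned the Gria2 share difference from -0.56 to 0.58 points. The log2 difference of the Grin2a to Grin2b ratio, -0.023, ran from -0.061 to 0.034 with 1 library left out, and was 0.034 without overexpression replicate 2 and 0.0087 without wild-type replicate 1. Same-numbered libraries did not deviate together (correlations of -0.051, -0.043, 0.015 and 0.027, against -0.111 to 0.103 for libraries of different number). The labels state no pairing, and these correlations cannot exclude one. For the ratios, an exact sign-flip test over 4 pairs cannot go below p = 0.125, so it could not pass the threshold. Each member held at least 135 counts in each library.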

Other observations

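Genes that supply and clear glutamate were also measured. Of 14 such genes none passed the test over all genes, 6 were above 0 and 8 below in log2 fold change, and the median was -0.0047. Slc1a1, a neuronal glutamate transporter, was at 60.9 ± 4.26 CPM against 69.1 ± 5.55 CPM (SD, n = 4 each, log2 -0.18, SE 0.063, edgeR adjusted p = 0.33), and was the only one with an unadjusted p under 0.05. Slc17a7, which loads glutamate into vesicles of cortical excitatory terminals, was at 2067 ± 107 against 1961 ± 117 CPM (log2 0.076, SE 0.050, edgeR adjusted p = 0.58). With the GC correction Slc1a1 was at log2 -0.16 and Slc17a7 at -0.033.

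Within gene families, shares of the summed level per kilobase were close between groups. Shank2 made up 19.2, 19.5, 19.3 and 19.1% of the 3 Shank genes in the group labelled overexpression, against 19.7, 20.2, 20.1 and 21.1% in wild type, lower in all 4 of the first group than in all 4 of the second. The share of Nlgn3 in the 3 neuroligin genes was also lower without overlap, at 8.75, 8.60, 8.69 and 8.01% against 9.32, 10.1, 8.96 and 9.22%. Cacng8 made up 35.6, 33.4, 36.7 and 35.9% of the 3 TARP genes against 32.4, 31.7, 32.1 and 34.6%, with wild-type replicate 4 inside the range of the first group. Such shares were looked at for every gene of the AMPA, GluN2, kainate, metabotropic, CaMKII, MAGUK, Shank, SAPAP, TARP and neuroligin families. Among them only those of Shank2 and Nlgn3 did not overlap, and by CPM 5.84% of all genes tested did not overlap. The shares named here were picked after their values were seen and were not tested, and each sets a gene against relatives of other GC content.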
